A study of Mus musculus with 4 samples.

Results

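Co-culture of Kupffer cells with SL4 cells was compared with separate culture of the same cell types, with the genotype of the Kupffer cells held as a block. Arrays entered by their titles, so that the comparison used 4 of the 4 arrays of the series, 2 from co-culture and 2 from separate culture. Kupffer cells are macrophages that reside in the liver, and SL4 is a mouse line derived from colon carcinoma. In each condition 1 array held wild-type Kupffer cells and 1 held Dectin-2 KO (Clec4n-/-) Kupffer cells, which lack a receptor for fungal and other glycan patterns. The Kupffer cells came from female C57BL/6 mice aged 12 weeks and were sorted as CD45+, CD11b+ and F4/80+, and the SL4 cells are of the same strain. Every group combined 100000 Kupffer cells and 100000 SL4 cells after 8 h in culture. Cells kept apart were lysed apart and their RNA was mixed, in proportions not given in the sources used here, so every array measured RNA of both cell types. Whether a sort pooled several mice is not given either. The values are signals of probe sets, the groups of short probes that stand for 1 transcript each, and a gene is described by its brightest probe set. Of 18193 genes named on the array, 10290 were tested because they lay above a signal of 76.1 on at least 2 arrays. This floor is the median signal of all probe sets.

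When macrophages and tumour cells meet, soluble factors and contacts can switch on NF-kappaB, a family of transcription factors held in the cytoplasm by inhibitors of the IkappaB type. NF-kappaB induces chemokines and cytokines, and it also induces its own inhibitors, which end the signal. Caveolae, by contrast, are small pits of the plasma membrane built from caveolins and cavins, abundant in mesenchymal and muscle cells and less so in macrophages.

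The labels were checked against markers of the cell types the cultures could hold. Of 24 pan-macrophage and leukocyte markers on the array, 7 were tested and 0 were called different between the culture conditions. The genes of the 3 sorting antigens, Ptprc, Itgam and Adgre1, lay under the floor on every array. The 7 tested, Cd53, Laptm5, Cd68, Csf1r, Lyz2, Tyrobp and Fcer1g, lay above it on all 4. The brightest were Cd53 at 615 to 793 and Laptm5 at 350 to 502. The summed signal of this list ran from 1924 to 2161 in separate culture and from 2124 to 2232 in co-culture. Of 19 Kupffer cell markers 8 were tested, and 1 rose, C1qb, a subunit of complement C1q, while the defining markers Clec4f, Vsig4, Timd4 and Marco lay under the floor. Cd5l, also in the list, read 156 and 125 in separate culture and 156 and 195 in co-culture, and was not called. The other probe set of C1qb gave 0.42 (log2) and was not called, and C1qa and C1qc lay under the floor. By the median over probe sets 0 Kupffer cell markers were called. Clec4n, the deleted gene, was under the floor on every array, wild type included, so its signal checks no label. The sum of the Kupffer cell list was 3440 and 3518 in separate culture and 4011 and 3841 in co-culture. Most of it came from Id3, at 2140 and 1960 against 2210 and 2232, and Hmox1, at 431 and 467 against 598 and 584. Neither was called, so the sum says little about the defining markers. Of 24 epithelial and colon carcinoma markers 4 were tested and 0 were called, and the epithelial cadherin Cdh1 and the keratins Krt8, Krt18, Krt19 and Krt20 lay under the floor throughout. Esrp2, at 2160 to 2339, and Spint1, at 667 to 869, lay above it on all 4 arrays, and Epcam and Cldn3 on 3. Of 20 mesenchymal markers 15 were tested, of which 1 rose and 3 fell, with sums of 51030 and 47162 in separate culture and 46240 and 44365 in co-culture. Markers of neutrophils, of T and NK cells and of B cells had 0 members above the floor on any array. The part that the makeup of the cell mixture had in the changes below was not tested. In such mixed RNA, fewer cells of a type and less RNA per cell cannot be told apart, and neither can a change in Kupffer cells and one in SL4 cells.

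In co-culture 8 of 14 tested inhibitors and feedback regulators of NF-kappaB, 4 of 7 chemokines and 4 of 8 prostaglandin genes rose. Lower were 6 of 10 caveola genes and 7 of 14 collagens. Cxcl1, a chemokine, had the largest rise and Cav1, a caveolin, the largest fall among genes above the floor on all arrays. In total 791 genes were called, 7.69% of those tested, at an adjusted p under 0.05 (limma, Benjamini-Hochberg). They were 305 higher genes, 2.96% of those tested, and 486 lower genes, 4.72%. The higher changes were the larger ones. Among higher genes 57 changed at least 2-fold and 10 at least 4-fold, against 33 and 1 among lower genes. The median change of a called gene was 1.52-fold for the higher and 1.42-fold for the lower genes. All 90 tested genes with a change of 2-fold or more were called, so the call mainly decided among smaller changes. The single residual degree of freedom is the difference of the change between the genotypes, and the test borrowed its spread across genes, worth 14.8 further degrees of freedom. The calls rest on that borrowing, on its trend with signal and on all 4 arrays: 0 genes passed in limma without borrowing (876 at an unadjusted p under 0.05), 36 higher and 12 lower without the trend, and at most 1 when any array was left out. With all arrays set to a common median 19.21% of the called genes were higher, against 38.56% as deposited.

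**Figure D1:**
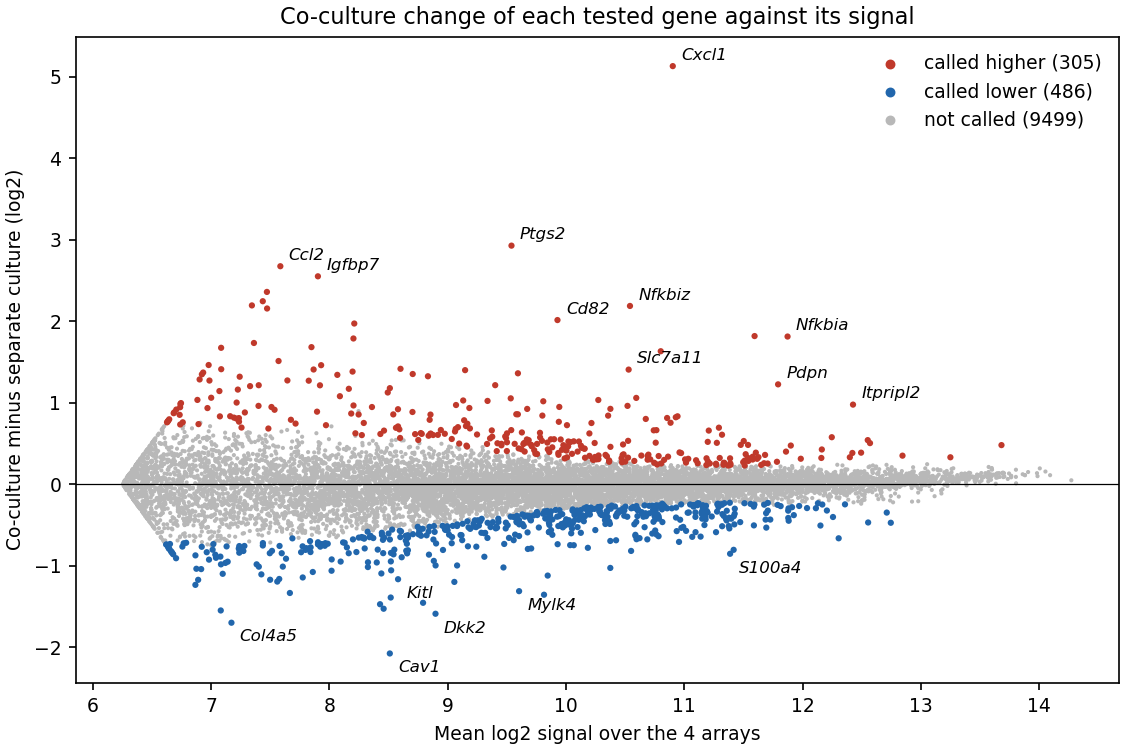
Change of each of the 10290 tested genes (co-culture minus separate culture, log2, vertical axis) against its mean log2 signal over the 4 arrays (horizontal axis), with the 305 called higher in red and the 486 called lower in blue. Cxcl1 stands far above all other genes at 5.13, and the band of genes not called narrows towards high signals.

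Of 14 tested inhibitors and feedback regulators of NF-kappaB 8 rose and 0 fell, while 6 were not called. The median log2 change was 0.64, against -0.01 over all tested genes. By the median over probe sets 6 of the 14 were called higher, and the median change was 0.37. Nfkbia, the classical IkappaB that holds NF-kappaB in the cytoplasm, had signals of 2041 and 1966 in wild-type and knockout separate culture and of 6938 and 7114 in co-culture. Both co-culture arrays lay far above both others, a change of 1.81 ± 0.07 (log2, SE, adjusted p = 5.27e-11). Its 4 other probe sets gave 1.97 to 2.87. Nfkbiz, an atypical IkappaB that acts in the nucleus, went from 779.5 and 626 to 2988 and 3380.4, or 2.19 ± 0.10. Bcl3, another nuclear IkappaB, read 80.9 and 61.7 in separate culture and 367 and 441 in co-culture, or 2.36 ± 0.21. Tnfaip3, the ubiquitin-editing enzyme A20 that shuts off signalling to NF-kappaB, read 72.8 and 93.3 against 341 and 412, or 2.15 ± 0.20. For Bcl3 and for Tnfaip3, 1 separate array lay under the floor and was counted at the floor. Nfkbie and Nfkbib, further IkappaB proteins, rose by 1.08 ± 0.20 and 0.49 ± 0.11, and Tnip1, a partner of A20, rose by 0.79 ± 0.15. Zc3h12a, a ribonuclease that degrades cytokine mRNA, was under the floor in separate culture and rose at least 1.88-fold. Other members of the list did not pass the test, such as the deubiquitinases Cyld at 0.01 ± 0.16 and Otud7b at -0.01 ± 0.07, and Tnip2 and Tnfaip2 at 0.06 and -0.10.

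Among the subunits and adaptors of NF-kappaB 4 of 11 rose and 0 fell, against 3 of 10 and 0 by the median over probe sets. Relb and Nfkb2, the subunits of the non-canonical branch, rose by 1.21 ± 0.19 and 1.18 ± 0.17, with Relb at 148 and 171 in separate culture and 394 and 345 in co-culture. Rela, the main subunit of the canonical branch, had a change of 0.11 ± 0.15 that did not pass. Of the adaptors, Traf1 rose from 85.5 and 95.5 to 271 and 332, or 1.73 ± 0.20, although its second probe set gave only 0.20, and Traf2 rose by 0.62 ± 0.18.

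Since several of these genes rose, promoters of all tested genes were searched for exact matches to 5 forms of the kappaB site: GGGANTTTC, GGGANTTCC, GGGGATTTC, GGGGCTTTC and GGAAATTCC, on both strands, in the 250 bases before and 50 bases after each start that RefSeq gives on GRCm38.p6. These forms overlap one another in part, and RefSeq windows were matched for 8434 of the 10290 tested genes. The stretches shown are those upstream of genes that rose at least 2-fold, with the matching bases in capitals, written 5′ to 3′ on the strand of the gene.
Cxcl1: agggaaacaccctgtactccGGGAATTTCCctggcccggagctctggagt
Ier3: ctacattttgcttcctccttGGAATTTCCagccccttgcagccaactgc
Nfkbia: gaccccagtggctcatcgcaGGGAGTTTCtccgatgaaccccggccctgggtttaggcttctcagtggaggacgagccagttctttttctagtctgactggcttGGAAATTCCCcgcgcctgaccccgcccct
Tnfaip3: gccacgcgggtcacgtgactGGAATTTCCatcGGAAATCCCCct
Nfkb2: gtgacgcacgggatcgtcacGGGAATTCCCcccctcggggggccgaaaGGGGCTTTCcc
The Cxcl1 stretch lies at chr5:90891154-90891203 on the plus strand, with the matches 62 to 71 bases before the start. The Ier3 stretch lies at chr17:35821554-35821602 (plus), the Nfkbia stretch at chr12:55492648-55492780 (minus), the Tnfaip3 stretch at chr10:19015411-19015454 (minus) and this Nfkb2 stretch at chr19:46304678-46304736 (plus). Nfkb2 had 2 further stretches with a match before other annotated starts. A kappaB match was present in 6.05% of 314 promoters of higher genes, 2.83% of 494 promoters of lower genes and 3.92% of all 10804 promoters of tested genes. The AP-1 site TGANTCA was in 9.55% of promoters of higher genes, 8.1% of those of lower genes and 5.01% of all. The TEAD site GGAATG was in 13.1%, 14.2% and 11.8%, and the TATA box TATAAA in 11.5%, 7.69% and 7% of them. Among 67 promoters of 46 genes at least 2-fold higher, kappaB matches were in 11.9% (8 promoters of 6 genes), AP-1 in 19.4%, TEAD in 13.4% and the TATA box in 14.9%. In the 40 promoters of genes at least 2-fold lower the shares were 2.5%, 12.5%, 17.5% and 15%. These shares are descriptions of short windows without a test, and genes with several starts count more than once.

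Of 33 chemokines on the array 7 were tested, of which 4 rose and 1 fell. By the median over probe sets 3 were higher and 1 lower, and the median change of the list was 0.35 in place of 0.89. Cxcl1, which attracts neutrophils through Cxcr2, had signals of 321 and 326 in separate culture and 12375 and 10366 in co-culture. The change was 5.13 ± 0.08 (log2, SE), or 35.0-fold, with an adjusted p of 9.93e-17, and the 2 other probe sets gave 5.08 and 6.15. Ccl2, which attracts monocytes, was at 2.38 and 53.1 in separate culture and at 467 and 505 in co-culture. It rose at least 6.38-fold, since both separate arrays lay under the floor. Cxcl16 and Cx3cl1, which are both made as membrane-bound proteins, rose by 1.20 ± 0.21 and 0.89 ± 0.19. Cxcl12, the stromal ligand of Cxcr4, fell instead, from 2039.6 and 2136 to 1295 and 1312, or -0.68 ± 0.07, with both other probe sets at -0.76 and -0.68. Cxcl2, a close relative of Cxcl1, and Cxcl10, an interferon-induced chemokine, stayed under the floor on every array.

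Of 8 tested cytokines 4 rose and 0 fell, and 3 of the 4 are ligands of receptors that signal through gp130. Lif, leukaemia inhibitory factor, was at 1.28 and 2.63 in separate culture and 205 and 189 in co-culture, at least 2.58-fold higher. Il11 was at 52.1 and 64.8 against 207 and 212, at least 2.75-fold higher, and Clcf1, another ligand of the family, rose by 0.49 ± 0.08. Csf1, the growth factor of macrophages, rose by 0.25 ± 0.07, close to the threshold with an adjusted p of 0.0474. Il6 reached 92.2 and 84.9 in co-culture from 1.32 and 7.37, just above the floor, and did not pass the test. Tnf and Il1b, the classical macrophage cytokines that activate NF-kappaB, lay under the floor on all arrays. In the TNF receptor family 4 of 11 tested genes rose and 0 fell. Tnfrsf9, a costimulatory receptor, rose at least 1.98-fold, Tnfrsf23 by 0.77 ± 0.21, the death receptor gene Tnfrsf10b by 0.51 ± 0.11 and Tnfrsf21 by 0.33 ± 0.09. With quantile normalization 2 genes of the TNF family were called higher, and by the median over probe sets 0 were (limma, 4 at an unadjusted p under 0.05). Of the cytokines 2 were then called higher.

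In the prostaglandin pathway 4 of 8 tested genes rose and 0 fell. With quantile normalization and with a common median 3 of 8 were called higher, and by the median over probe sets 3 of 7. Ptgs2, the inducible cyclooxygenase, went from 275 and 265 to 2106 and 1999, a change of 2.93 ± 0.11 or 7.60-fold (adjusted p = 5.27e-11), and its second probe set gave the same 2.93. Ptges, the inducible prostaglandin E synthase, went from 1079 and 1028 to 2223 and 1887, or 0.96 ± 0.08. The phospholipase Pla2g4a, which frees arachidonic acid, rose by 0.23 ± 0.07, close to the threshold with an adjusted p of 0.0473 (limma). Abcc4, a transporter that exports prostaglandins, rose by 0.56 ± 0.11. The receptor gene Ptger4 had a change of -0.10 ± 0.12 that did not pass.

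Among selectins, integrins and other adhesion receptors 7 of 28 tested genes rose and 6 fell, and integrins were on both sides. Selp, which encodes P-selectin, had signals of 131 and 171 in separate culture and 587 and 586 in co-culture, or 1.97 ± 0.18, and its 2 other probe sets gave 1.83 and 2.50. Sele, E-selectin, rose by 1.05 ± 0.12 and Vcam1, a ligand of leukocyte integrins, by 0.28 ± 0.07. These are genes known for endothelial activation, and of 12 liver endothelium markers 1 was tested and 0 were called. Among integrins, the fibronectin receptor subunit Itga5 rose by 0.51 ± 0.10, Itgb5 by 0.61 ± 0.15 and Itga3 by 0.30 ± 0.07. The 2 other probe sets of Itga3 gave -0.09 and 0.07. The laminin receptor subunit Itga6 fell from 2852 and 3213 to 1945 and 2078, or -0.59 ± 0.07. Itgav, a partner of Itgb5, fell by 0.25, although the median over probe sets put it at 0.0013, and Itga4 fell at least 1.73-fold. By the median over probe sets 2 genes of the list were higher and 2 lower of 26, and with a common median 5 were higher and 7 lower.

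Of 33 tested immediate early genes, which respond to stimuli without new protein synthesis, and MAP kinase phosphatases 9 rose and 5 fell. By the median over probe sets 5 were higher and 1 lower. Ier3, a stress-response gene and NF-kappaB target, led with 1525 and 1781 in separate culture and 5763 and 5842 in co-culture, or 1.82 ± 0.07. The AP-1 subunits Fosl2, Jund and Fosl1 rose by 0.82 ± 0.07, 0.69 ± 0.07 and 0.32 ± 0.07, whereas Jun had a change of -0.06 ± 0.07 that did not pass. Nr4a2, an orphan nuclear receptor, rose by 1.02 ± 0.14, and the phosphatases Dusp16 and Dusp1, which turn off MAP kinases, by 0.66 ± 0.07 and 0.53 ± 0.10. Falling members were Klf2, a transcription factor of quiescent endothelium and leukocytes, at -0.97 ± 0.21, Egr3 at -0.39 ± 0.07, and Klf10, Dusp6 and Dusp4 between -0.27 and -0.24. Dusp4 and Dusp6 are feedback targets of the ERK pathway, and so are Spry1, Spry4 and Spred1, which fell by 0.82, 0.27 and 0.25. Their relatives Spry2 at -0.08 ± 0.07, Spred2 at 0.08 ± 0.07 and Spred3 at -0.29 ± 0.20 did not pass.

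**Figure D2:**
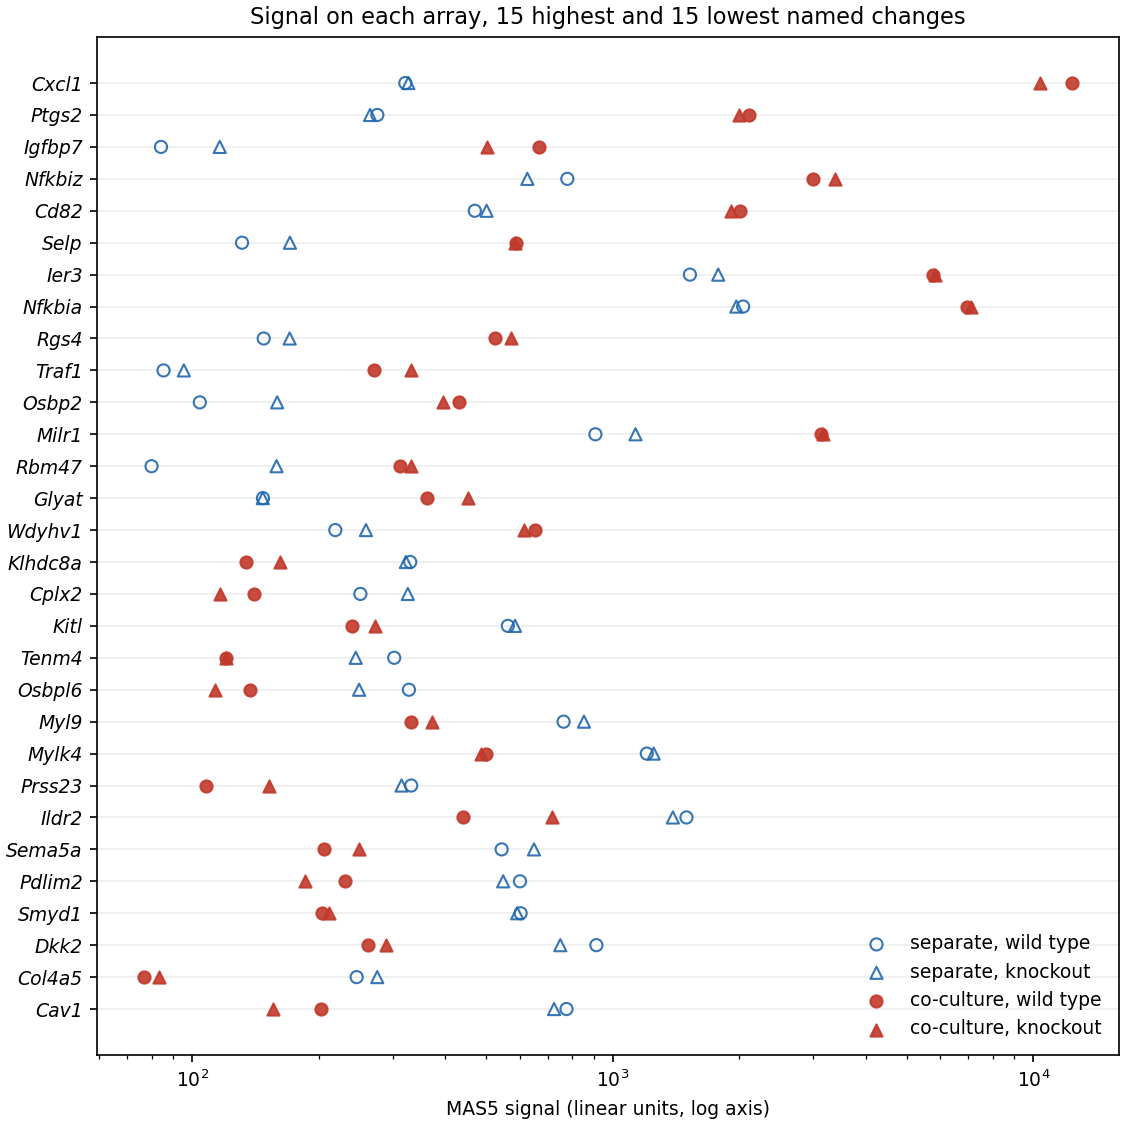
MAS5 signal on each array (horizontal log axis, linear units) for the 15 highest and 15 lowest named changes among genes above the floor on all arrays, with open blue symbols for separate culture, filled red symbols for co-culture, circles for wild type and triangles for knockout. In each of the 30 genes both co-culture symbols lie on the same side of both separate culture symbols, which follows largely from their choice as the largest called changes.

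Several of the largest changes fell outside these pathways. Igfbp7, a secreted member of the IGF-binding proteins, went from 84.3 and 116 to 669 and 502, or 2.55 ± 0.22. Cd82, a tetraspanin, went from 469.7 and 501 to 2007 and 1909, or 2.01 ± 0.09, while its relative Tspan5 fell from 1996 and 1803 to 959.6 and 900.5, or -1.03 ± 0.08. The regulators of G-protein signalling Rgs4, Rgs16 and Rgs5 rose by 1.79 ± 0.18, 0.95 ± 0.09 and 0.62 ± 0.12. Rgs2 at -0.23 ± 0.19 and Rgs3 at 0.20 ± 0.20 did not pass. Rrad, a small GTPase that inhibits calcium channels, rose by 2.24 ± 0.20, while Gem at 0.26 ± 0.21 and Rem2 at -0.01 ± 0.24 did not pass. In the list of small GTPases and their regulators 4 of 42 tested genes rose and 4 fell. Milr1, an immunoglobulin-like receptor described in mast cells, went from 909 and 1132 to 3118 and 3162, or 1.63 ± 0.08. Osbp2, an oxysterol-binding protein, rose by 1.68 ± 0.21, Rbm47, an RNA-binding protein, by 1.51 ± 0.23, Glyat, a glycine acyltransferase, by 1.46 ± 0.19 and Wdyhv1, an amidase of N-terminal glutamine, by 1.41 ± 0.16. Genes with both separate arrays under the floor included the fibroblast-derived growth factor Fgf7, at least 4.57-fold higher, the glycerol channel Aqp3, at least 3.19-fold, and the neuropeptide gene Nts, at least 2.54-fold. Other genes changed under 2-fold but with a small adjusted p. Itpripl2 rose by 0.97 ± 0.08, Procr, the endothelial protein C receptor, by 0.83 ± 0.07, Cd24a, a surface glycoprotein, by 0.81 ± 0.07 and the receptor gene Gprc5a by 0.80 ± 0.07. Cep43, a centrosomal protein, and Lrig1, an inhibitor of ErbB receptors, rose by 0.92 ± 0.08 and 0.75 ± 0.07.

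Of 10 tested caveola genes 6 fell and 0 rose, with a median of -0.45, although quantile normalization gave 5 lower and called Ehd1 higher. Cav1, whose protein forms the coat of caveolae, went from 776 and 725 in separate culture to 202 and 156 in co-culture, or -2.08 ± 0.17 (adjusted p = 9.7e-07), the largest fall among genes above the floor on all arrays. Cav2, its partner caveolin, went from 734 and 735 to 287 and 249.6, or -1.46 ± 0.15, but its only other probe set gave 0.24. The cavins that coat the pit fell less: Cavin1 from 3294 and 3227 to 2194 and 2439, or -0.50 ± 0.07, Cavin3 by 0.64 and Cavin4 by 0.66. Ehd2, an ATPase at the caveola neck, fell by 0.40. Its relatives Ehd1 and Ehd4, which work on endosomes, were at 0.22 ± 0.08 and -0.19 ± 0.07 and did not pass. When the median over all probe sets of a gene was used, 1 of 9 caveola genes was called, against 6 of 10 by the brightest probe set.

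In the list of contractile genes of the smooth muscle type 6 of 23 tested genes fell and 1 rose, while 16 were not called. Myl9, the regulatory myosin light chain, went from 764 and 854 to 332 and 372, or -1.20 ± 0.13, and Mylk, the kinase that activates it, fell by 1.02. Des, the intermediate filament desmin, went from 2235 and 1778 to 1173 and 1086, or -0.82 ± 0.08, and Acta2, smooth muscle actin, fell by 0.66. The focal adhesion genes Vcl and Tln1 fell by 0.36 and 0.32, although the median over probe sets put Tln1 at 0.12. Smtn, smoothelin, was the member that rose, by 0.62 ± 0.14, and the nonmuscle myosin gene Myh9 had a change of 0.08 ± 0.09 that did not pass. Of 21 sarcomere genes of striated muscle 6 fell and 0 rose. Among them were Smyd1, a methyltransferase of muscle cells, from 604 and 592 to 203 and 211, or -1.53 ± 0.17, the kinase gene Mylk4 at -1.31 ± 0.11, cardiac actin Actc1 at -0.66 ± 0.12 and the troponin genes Tnni1 and Tnnt3 at -0.60 ± 0.17 and -0.46 ± 0.09. Pdlim2, an adaptor that also promotes the degradation of the NF-kappaB subunit p65, fell by 1.47 from 602 and 549 to 231 and 185. With the median over probe sets, the smooth muscle list had 2 lower calls and the sarcomere list 2.

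Collagens fell in 7 of 14 tested genes and rose in 1, with a median of -0.35. Among them were 3 chains of collagen IV, the collagen of basement membranes: Col4a5 went from 246 and 275 to 76.7 and 83.5, or -1.70 ± 0.21, Col4a2 fell by 0.79 ± 0.10 and Col4a1 by 0.65 ± 0.07. The second probe set of Col4a5 gave -0.44. Col3a1, a fibrillar collagen, went from 3206 and 3151 to 2191 and 2257, or -0.52 ± 0.07, and Col7a1 and Col5a2 fell by 0.92 and 0.81. Col8a1 was the exception, at 545 and 629.8 against 817 and 945, or 0.58 ± 0.11, and Col1a1 was under the floor on all arrays. With quantile normalization 4 collagens were lower and 1 higher, and with the median over probe sets 3 and 0. Of 25 tested matrix glycoproteins and proteoglycans 4 rose and 3 fell. Tnc, the wound matrix protein tenascin C, rose from 5002 and 4955 to 7247 and 7221, or 0.54 ± 0.07, while Mgp, an inhibitor of calcification, fell from 3736 and 3503 to 2112 and 2025, or -0.81 ± 0.07. Emid1 fell by 1.55 ± 0.21 and the proteoglycan Bgn by 0.40. S100a4, a calcium-binding protein of motile mesenchymal cells, went from 3578 and 3629 to 2060.4 and 1925, or -0.86 ± 0.07 (adjusted p = 9.37e-07).

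Of 23 tested matrix proteases and their inhibitors 5 rose and 1 fell, while 17 were not called and more members lay below 0 than above it, 13 against 10. Serpinb2, the plasminogen activator inhibitor of macrophages, rose by 1.12 ± 0.16, Adam19 by 0.53 ± 0.08, Timp1, an inhibitor of matrix metalloproteases, by 0.50 ± 0.07, Adamts4, which cleaves aggrecan, by 0.48 ± 0.10 and the urokinase receptor gene Plaur by 0.34 ± 0.07. Prss23, a serine protease, fell from 332 and 315 to 108 and 152, or -1.34 ± 0.21. When the arrays were set to a common median instead, 4 members were higher and 5 lower.

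Tgfb1, transforming growth factor beta, rose from 209 and 158 to 513 and 437, or 1.38 ± 0.18, Inhba, the activin subunit, by 0.84 ± 0.10, and Fst, which binds activin, by 0.95 ± 0.17. In the TGF-beta and BMP list 5 of 35 rose and 1 fell, the latent binding protein Ltbp1 at -0.40 ± 0.07, whereas a common median gave 4 higher and 4 lower and the median over probe sets 2 and 0. Of 19 tested secreted growth factors 5 rose and 1 fell (2 and 0 by the median over probe sets). Those that rose included the angiogenic factor Vegfa at 0.72 ± 0.09 and its lymphatic relative Vegfc at 0.46 ± 0.10. Flt1, a receptor of Vegfa, fell from 578 and 488 to 241 and 269, or -1.06 ± 0.17, and the coreceptor genes Nrp1 and Nrp2 went opposite ways, at -0.70 ± 0.20 and 0.66 ± 0.17. Of 35 tested growth factor receptors 4 rose and 5 fell, against 3 and 1 with quantile normalization and 0 and 0 by the median over probe sets (limma, 12 at an unadjusted p under 0.05). Kitl, the ligand of the receptor Kit, fell from 563 and 585 to 239.5 and 273, or -1.17 ± 0.16, and all 3 other probe sets were lower. Irs1, the adaptor of the insulin and IGF receptors, fell from 1013 and 1012 to 492 and 504, or -1.02 ± 0.11, and Igf1r by 0.36.

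In the Wnt pathway 6 of 22 tested genes fell and 0 rose, against 4 and 0 by the median over probe sets. The list as a whole was not lower, with a median of 0.03 and 13 members above 0 against 9 below. Dkk2, a secreted modulator of Wnt receptors, went from 914 and 750.0 to 262 and 288, or -1.59 ± 0.15. Tcf7l2, a transcription factor at the end of the pathway, fell by 0.54, Apcdd1, an inhibitor of Wnt signalling, by 0.48, the ligand gene Wnt7b by 0.65 and the receptor genes Fzd2 and Fzd7 by 0.79 and 0.28. Among semaphorins and their relatives 6 of 23 fell and 3 rose, against 3 and 2 by the median over probe sets. Sema5a went from 544 and 649 to 206 and 249, or -1.39 ± 0.16, and Sema3d and Sema3e fell by 1.18 and 0.90, while Sema3c and Sema4b rose by 1.06 ± 0.23 and 0.66 ± 0.07.

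Metabolic lists had calls in both directions. Of 33 tested genes of fatty acid synthesis and oxidation 3 rose and 5 fell, of 30 genes of glycolysis and the hypoxia response 2 rose and 4 fell, and of 24 genes of metal transport 3 rose and 2 fell. Slc7a11, the cystine transporter and a target of Nrf2, rose from 866 and 953 to 2347 and 2466, or 1.40 ± 0.08, and 5 of 30 Nrf2 and oxidative stress genes rose while 0 fell. With the arrays set to a common median 2 genes of that list were called higher, and so were 2 by the median over probe sets. The metal transporters Slc11a1 and Slc11a2 rose by 1.27 ± 0.20 and 1.06 ± 0.08. Cpt1a, which admits fatty acids to mitochondria, rose from 555 and 419 to 1295 and 1184, or 1.36 ± 0.11, whereas the desaturase genes Scd1 and Scd2 fell by 0.70 and 0.42. Slc2a3, a glucose transporter, fell by 1.08 ± 0.19 and the glycolytic enzyme gene Pfkp by 0.40, and Hk2, hexokinase, rose by 0.27 ± 0.07. By the median over probe sets 0 glycolysis and hypoxia genes were higher and 2 lower (limma). Chac1, a glutathione-degrading enzyme, fell by 0.96 ± 0.17, and Cebpb, a transcription factor of acute inflammation, rose by 1.02 ± 0.10.

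Some large sets of housekeeping machinery gave no calls, while others had shares near that over all genes. Of 43 genes of oxidative phosphorylation 0 were called in limma (4 at an unadjusted p under 0.05), and of 40 lysosomal genes 0 (6 at an unadjusted p under 0.05), against 7.69% over all genes. In DNA replication 1 of 42 rose and 2 fell (7.14% called), and in mitosis 1 of 33 rose and 1 fell (6.06%). Both shares are near that over all genes. Of 34 ribosomal protein genes 1 was called (2.94%). Of 11 interferon-stimulated genes 1 rose, Ifi35 at 0.35 ± 0.08, a share of 9.09%. Of 14 core genes of the Hippo pathway 0 were called in limma (3 at an unadjusted p under 0.05). With a common median 3 lysosomal genes and 1 gene of oxidative phosphorylation were called lower. The medians of these lists lay between -0.05 and 0.08 and changed sign under other scalings in some lists, so no direction is given for them.

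**Figure D3:**
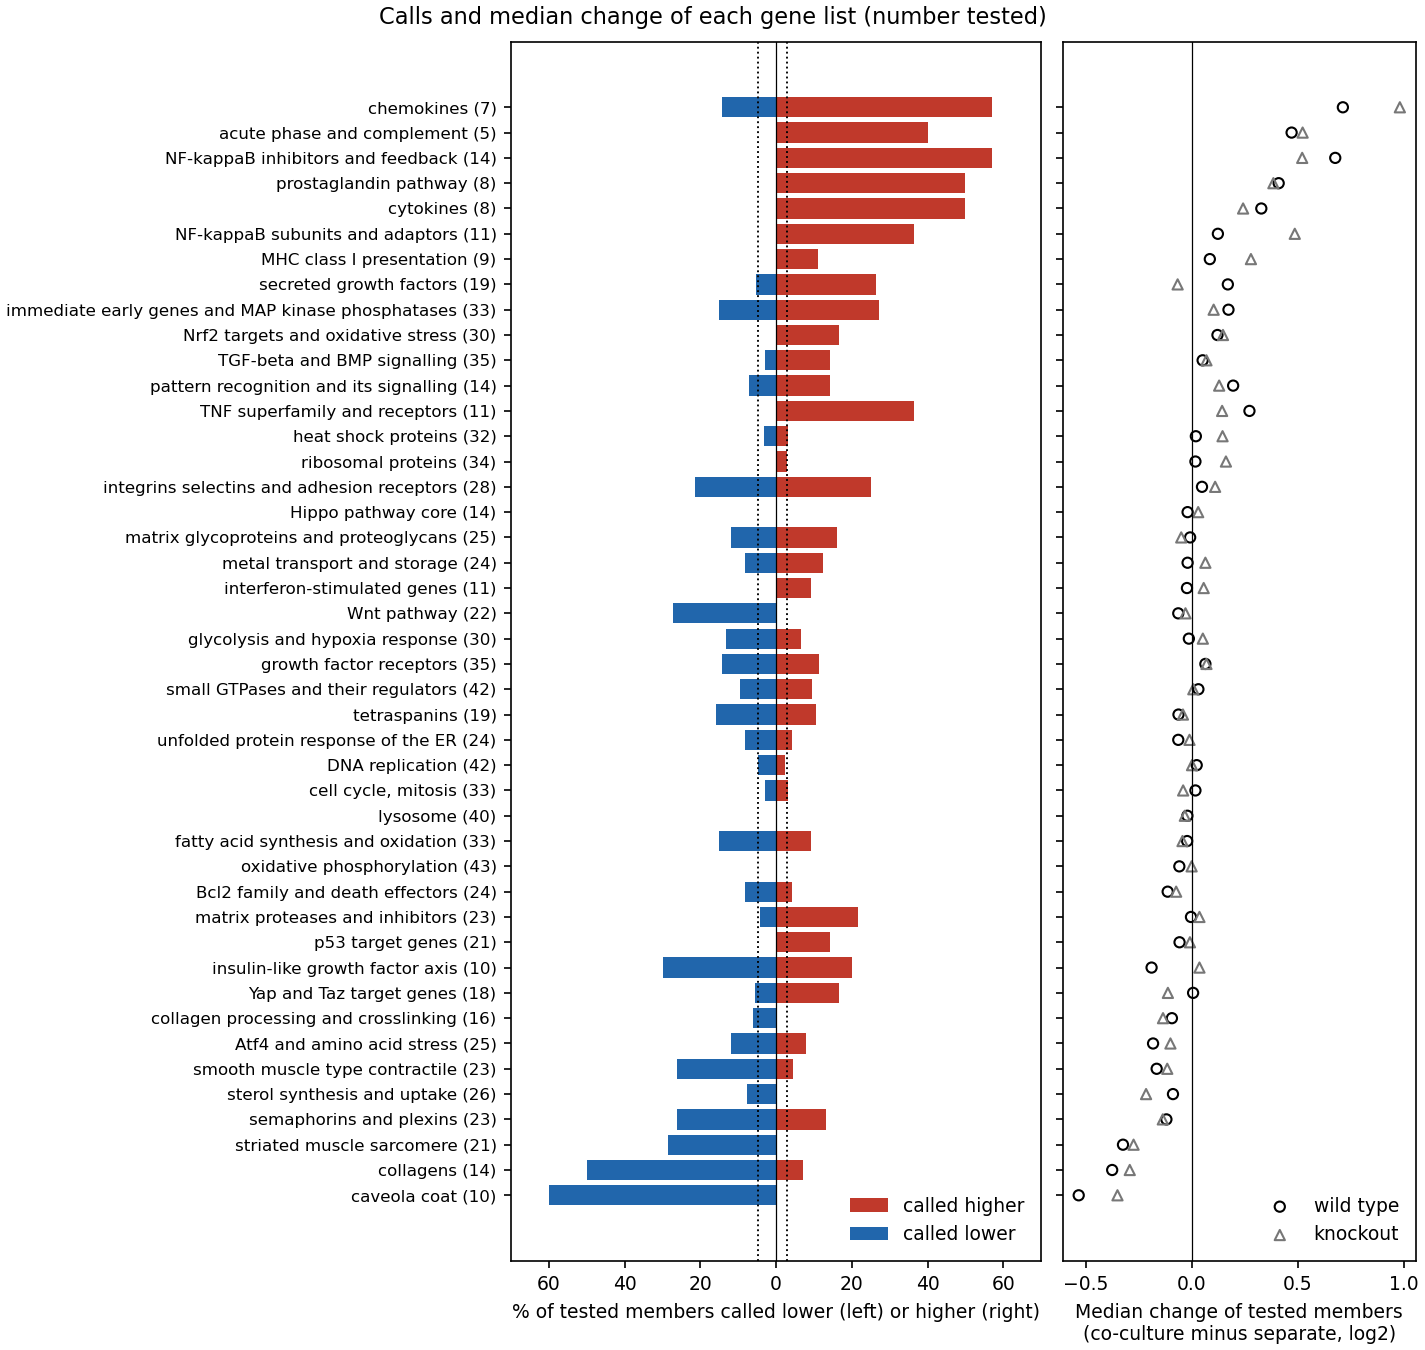
Left, share of the tested members of each of 44 gene lists called lower (blue, to the left) or higher (red, to the right), with dotted lines at the shares over all genes, 4.72% and 2.96%. Right, median log2 change of the tested members in wild type (circles) and knockout (triangles), which runs from chemokines at the top to the caveola coat at the bottom.

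Genes with several probe sets allowed each change to be read again on the same arrays, which is a repeat of the measurement and not a replicate. Of the 791 called genes 442 had another probe set that passed the same filter, the brightest of which is taken as the second,, and in 402 of them (90.95%) it pointed the same way. Among tested genes that were not called, the share was 63.79% of 4963. Agreement rose with the size of the change: 246 of 279 genes changed under 1.5-fold, 109 of 115 changed 1.5-fold to 2-fold and 47 of 48 changed at least 2-fold had a second probe set in the same direction. It was 92.44% where the second probe set was within 4-fold of the first in signal and 84.71% where it was dimmer than that. The second probe set showed smaller changes, with a median size of 0.40 against 0.49 (log2). Across the 442 genes the changes of both probe sets had a Pearson's r of 0.886, a description over genes that share the 4 arrays. Each of the 22972 probe sets above the floor, named or not, was also fitted on its own, and 1619 of them, 7.05%, were called. By that fit 191 of the 442 second probe sets were called in the same direction and 1 in the opposite one.

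For some named genes the probe sets did not all point the same way. Rnf213, a large ubiquitin ligase, rose by 0.97 ± 0.13 from 382 and 387 to 746 and 759.8, while its second probe set gave -0.03. Rab7b, a GTPase of late endosomes, fell by 0.84, with a second probe set called lower at -0.75 and another at 0.06, and Fzd2 had others at -0.39 and 0.01. Cp, the copper oxidase ceruloplasmin, rose at least 1.99-fold with 4 of 5 other probe sets higher and 1 at -0.08. Rabgap1l fell at least 1.77-fold, and of its 3 other probe sets 2 were lower and 1 was at 0.12.

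**Figure D4:**
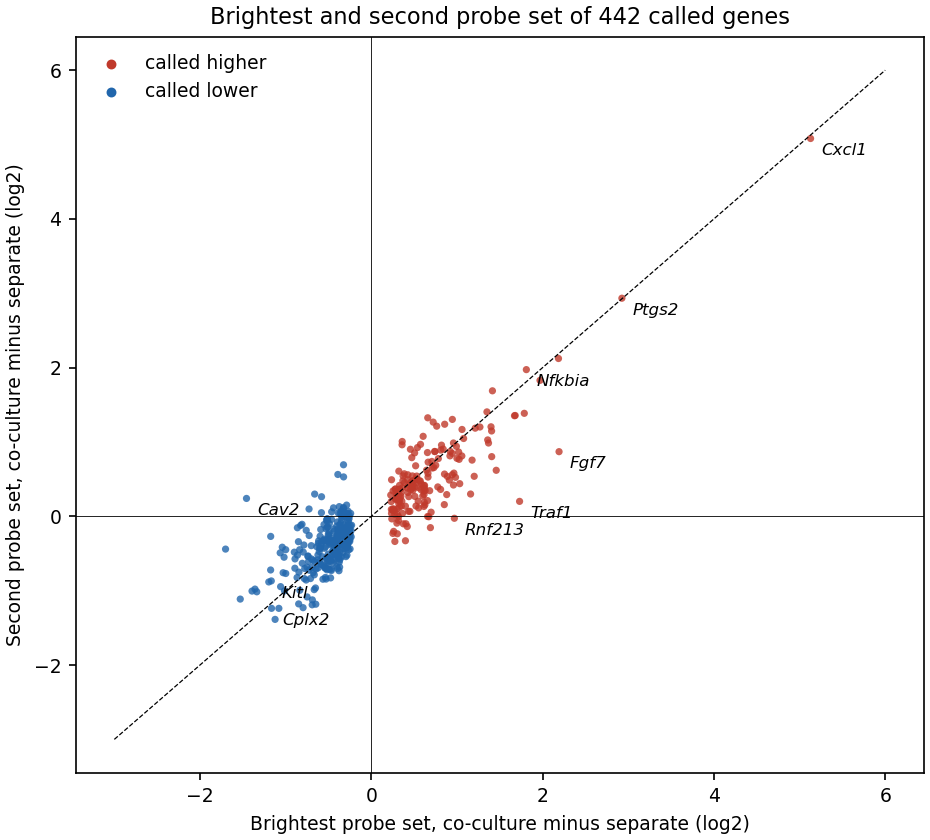
Change by the second probe set (vertical axis, co-culture minus separate culture, log2) against the change by the brightest probe set (horizontal axis) for 442 called genes, with the dashed line marking equal values. Most points lie in the quadrants of equal sign, while Cav2 and Rnf213 lie across the horizontal zero line and Traf1 close to it.

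The wild-type and the knockout change rest on different arrays and could be set side by side. Across the 10290 tested genes the changes of wild type and knockout correlated with a Pearson's r of 0.533, a description over genes within 4 arrays. All 305 higher and all 486 lower genes changed in the same direction in both genotypes. This follows in part from the test, which takes a difference between genotypes as its error. At least 1.5-fold in both genotypes were 120 of the higher and 122 of the lower genes. Cxcl1 changed by 5.27 in wild type and 4.99 in knockout (log2), Ptgs2 by 2.93 and 2.92, Nfkbia by 1.77 and 1.86 and Cav1 by -1.94 and -2.22. Igfbp7 was less alike at 2.99 and 2.11, and Ildr2, a tight junction protein, at -1.76 and -0.95. In the opposite direction by at least 1.5-fold were 6 of the 9724 genes above the floor on all arrays: Rhbdl1, Tmem259, Pcdhb14, Ttll11, Efnb1 and Lrrc8e, singled out after their values were seen. Tmem259 went from 628 to 316 in wild type and from 588 to 1008 in knockout. Whether the genotypes differed in their response was not tested, because a single array stands for each genotype and condition.

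**Figure D5:**
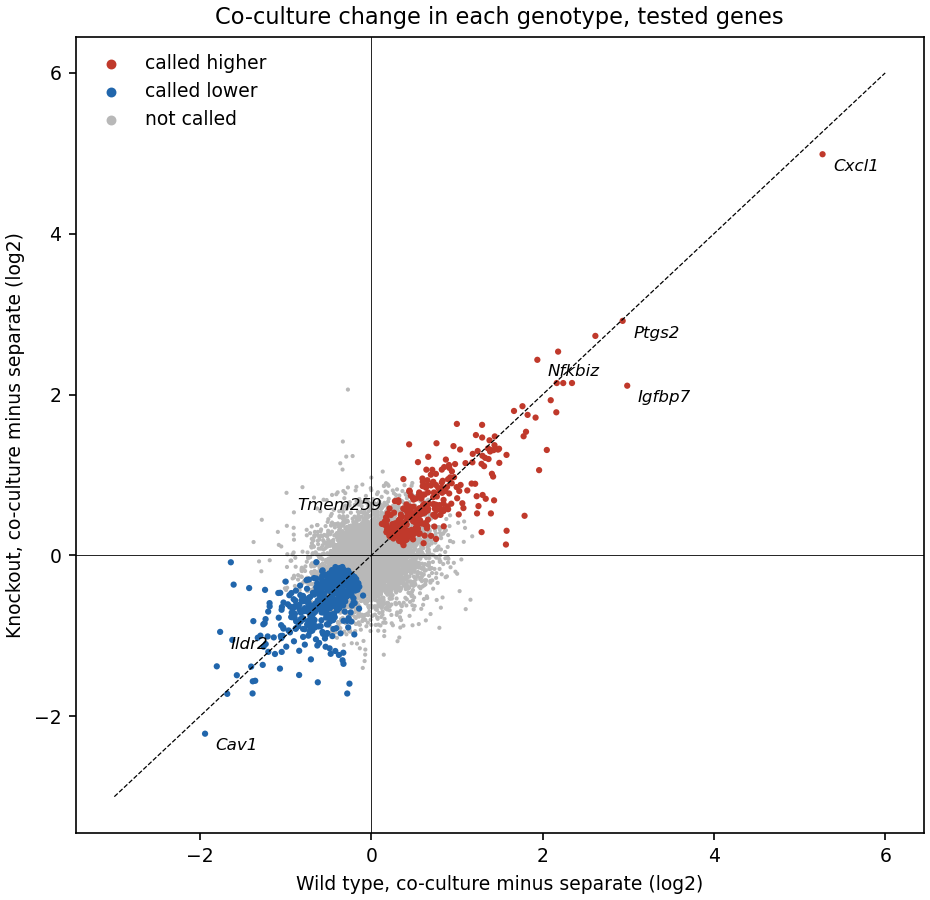
Co-culture change in knockout (vertical axis, log2) against that in wild type (horizontal axis, log2) for the tested genes, with called higher genes in red, called lower genes in blue and the dashed line marking equal changes. Called genes lie along the line, with Cxcl1 at 5.27 and 4.99 and Cav1 at -1.94 and -2.22, while genes not called form a cloud around zero.

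The signal of a gene set how small a change could be called. In the dimmest of 5 equal groups of the tested genes, with mean signals from 76.5 to 232, the median SE was 0.213 and the smallest called change 1.59-fold. In the brightest group, from 2391 to 19780, the values were 0.0705 and 1.17-fold. Calls were most frequent in the group next to the brightest at 11% and least in the brightest at 5.34%, whereas 39 of the 90 changes of 2-fold or more came from the dimmest group and 3 from the brightest. For the 15 higher and 10 lower genes with both arrays of a condition under the floor, the fold is a lower bound. Lower genes of that kind included S100a3, at least 2.36-fold, the sarcomere gene Myom2, at least 1.82-fold, and the hormone gene Sct, secretin, at least 1.88-fold.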

How the data were processed

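Per the labels' protocols, 20 ng of RNA of both cell types were amplified with the Ovation Pico WTA system, labelled with biotin and measured on arrays of 1 colour. Deposited were intensity signals on a linear scale, summarised by MAS5 in Affymetrix Expression Console 1.4, per the submitters' processing notes. Array medians of these signals were 72.5 to 78.4. Precision is limited by the 4 arrays, with 1 for each genotype and culture condition. Whether the arrays come from separate cultures or sorts is not given. The p-values rest on how far the change differed between the genotypes and on spread borrowed across genes. That spread may be technical, and it may hold a real difference between the genotypes.

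Of 45037 probe sets, 34945 had 1 gene symbol in the platform annotation, 932 had several and 9160 were unlisted. The 34945 gave 18193 genes, each represented by its brightest probe set. Signals were raised to a floor at the median of all probe sets (76.1) and taken to log2. Genes above the floor on at least 2 arrays were fitted with culture and genotype as terms in limma 3.58.1 (R 4.3.3, lmFit, eBayes with a trend), with Benjamini-Hochberg adjustment over all genes fitted. Called means an adjusted p under 0.05. For a gene with both arrays of a condition at or under the floor, the fold was computed against the floor and is a lower bound. A change is co-culture minus separate culture in log2, with the moderated SE. Alternatives were other floors and filters, another moderation, no genotype term, quantile normalization, a common median, the median over probe sets, fewer cross-hybridising probe sets and each array left out. A fit without moderation was added after seeing the data. The fit was tested on simulated data.

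The genes named are the 15 highest and 15 lowest called changes above the floor on all arrays whose probe sets did not disagree, 10 smaller changes with the smallest adjusted p, up to 6 per direction measured against the floor, up to 6 whose probe sets disagree, and members of 55 gene lists. The comparison, the lists and the rule were chosen with earlier results of these data known. List members under the floor are not counted as tested, and no list was tested as a set. Promoters are those of RefSeq on GRCm38.p6. Figures were drawn with matplotlib 3.10.9.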

Additional observations from a re-analysis of the deposited data

Results flagged for a closer look

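Probe sets without a gene name were left out of the account by gene and still carried differences between the conditions. Of 2542 unnamed probe sets above the floor on at least 2 arrays, 89 were called higher and 37 lower in co-culture in the fit over all probe sets (limma, adjusted p under 0.05), or 4.96%, against 7.05% of all probe sets. Their genes are not given in the annotation used here.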

How the results depend on the processing

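The number of calls depended on the processing more than the direction of the named changes did. Against 305 higher and 486 lower genes, limma called 0 and 0 with no filter on low values (1533 at an unadjusted p under 0.05), 36 and 12 with moderation but no trend, 155 and 193 without the genotype term, and 130 and 172 by the median over probe sets. Quantile normalization gave 312 lower genes and a common median gave 1119. Without 1 array, and then without the genotype term, 0 to 1 higher and 0 lower genes were called (1175 to 1405 at an unadjusted p under 0.05). In that fit the lone array is assumed to vary like the pair. Without moderation, an alternative chosen after seeing the data, 0 higher and 0 lower genes were called in limma (876 at an unadjusted p under 0.05). Of the genes named, Tln1 and Itgav changed direction, to 0.1194 and 0.0013 by the median over probe sets. The cause of these shifts was not tested. Over 12 alternatives, all but no filter, 1 array left out and no moderation, 26 genes were called in each, 19 higher and 7 lower, among them Cxcl1, Ptgs2, Nfkbia, Nfkbiz, Cd82, Selp, Ier3, Slc7a11, Cpt1a, Cav1, Kitl, Myl9 and Col4a5. No paired analysis by replicate number was possible because the labels number no replicates across the conditions, and the genotype term takes that place. Signals near the floor limit what can be read of the cytokines and of the macrophage markers.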

Other observations

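Genes outside the lists also changed at least 2-fold, and those given here were chosen after their values were seen. Pdpn, podoplanin, a membrane glycoprotein of stromal and invasive tumour cells, rose from 2403 and 2245 in separate culture to 5460 and 5387 in co-culture, or 1.22 (log2, adjusted p = 6.19e-09). The cytokine feedback genes Socs3 and Cish, which are induced by STAT factors and inhibit receptor signalling, rose by 1.03 and 1.41, with Socs3 at 74.3 and 89.8 against 171 and 167 and Cish at 91.4 and 60.2 against 257 and 191. Spsb1, another protein with a SOCS box, rose by 1.40. Crem and Pde4b, the cAMP-responsive modulator and a phosphodiesterase that degrades cAMP, rose by 1.35 and 1.41. Deptor, an inhibitor of the kinase mTOR, fell from 1316 and 1402 to 637 and 610.0, or -1.12 (adjusted p = 1.81e-06).

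Among smaller lists, the p53 targets Cdkn1a and Plk2 rose by 0.33 and 0.63, and 3 of 21 tested targets rose while 0 fell. With a common median 2 were higher and 2 lower, and by the median over probe sets 1 was higher. In the family of Bcl2, the death activator Bcl2l11 rose by 0.61, whereas Bok fell by 0.59. Tapbp, which loads peptides onto MHC class I, rose from 569 and 617 to 1059.7 and 1191, or 0.92, and was the only one of 9 tested genes of class I presentation that was called. Of 26 tested genes of sterol synthesis 2 fell, Cyp51 by 0.37 and Insig1 by 0.40, against 5 with a common median. The 2 genes are 7.69% of the list, the same share as was called over all tested genes. Of 24 tested genes of the unfolded protein response 1 rose, the sensor gene Ern1 by 0.86, and 2 fell, the sensor gene Atf6 by 0.37 and the chaperone cofactor Sdf2l1 by 0.60. Of 32 heat shock genes, Hspa4l rose by 0.62 and Hspb6 fell by 0.41, a share of 6.25% and so near that over all genes.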
